A study of Rattus norvegicus with 56 samples.

Results

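The comparison described here was that of rats pretreated with SC-560 and rats pretreated with saline, both challenged with LPS. Its members were the 9 arrays of 56 whose labels gave LPS as the challenge and SC-560 (SC560 LPS, arrays 31, 32, 33, 34 and 35) or saline (NaCl LPS, arrays 16, 17, 18 and 47) as the pretreatment. All 9 arrays came from male Wistar rats aged 3 months. For 10 days the rats had subcutaneous injections of SC-560 or of saline, so that the controls carried the stress of repeated injection as well. On the following day each rat was given 10 µg LPS in 100 µl saline intraperitoneally, and 120 min later the hypothalamus, mainly its medial part with the paraventricular nucleus, was taken. For comparison the report uses the same pretreatments followed by saline alone (SC560 NaCl, n = 5, and NaCl NaCl, n = 3) and celecoxib followed by LPS (CEL LPS, n = 5), in male rats of the same age with the same times and volumes. The spread of the tests also drew on celecoxib followed by saline (CEL NaCl, n = 5) and on indometacin, an inhibitor of both cyclooxygenases, followed by LPS (n = 3) or saline (n = 5). Neither the labels nor the methods state the doses of the drugs. The LPS is described as from Escherichia coli in the methods, which cover the operated rats of the series. Arrays are counted as samples, and as nothing further is said of the rats behind single arrays, the p-values measure the spread between these arrays.

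LPS, the endotoxin of Gram-negative bacteria, is sensed by Toll-like receptor 4 and starts the release of cytokines and interferons, which reach the brain through its vessels and through nerves. Cyclooxygenases turn arachidonic acid into prostaglandin H, from which prostaglandin E and the other prostanoids are made. Cyclooxygenase-1 (gene Ptgs1) is present in many cells at all times, in the brain mainly in microglia, and cyclooxygenase-2 (gene Ptgs2) is induced by inflammation, in brain vessels among other sites, where the prostaglandin E it yields acts on hypothalamic neurons to give fever and to drive the adrenal axis. SC-560 is known as an inhibitor of cyclooxygenase-1 and celecoxib as one of cyclooxygenase-2. Both act on the enzymes and not on the genes, so a level of Ptgs1 or Ptgs2 RNA does not show how far the enzyme was blocked.

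RNA was hybridized to Affymetrix rat gene arrays, which give 1 intensity for each of 36685 transcript clusters, the probes of 1 transcribed region. All levels below are log2 intensities and all differences are log2 differences, SC560 LPS minus NaCl LPS, so that a difference of 1 stands for a fold of 2. The medians of the 9 arrays lay between 4.05 and 4.23 and pairs of them correlated between 0.951 and 0.973. Peptide genes of the paraventricular nucleus were bright in every array, with Avp between 8.84 and 10.64 and Oxt between 9.43 and 10.76, and the factor Nkx2-1, which marks the hypothalamus, lay between 5.35 and 6.29. The pituitary hormone genes Prl and Gh1 were dim, at no more than 3.18 and 3.81. Cga and Tshb, also markers of the pituitary and pars tuberalis, varied widely, from 4.04 to 9.47 and from 2.97 to 8.40.

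Several arrays stood apart. SC560 LPS array 33 was low in Tshb, the thyrotropin subunit of the pars tuberalis beside the median eminence (2.97, against 6.98 to 8.40 in the other 4 arrays of its group), and in Pomc (4.60, against 6.41 to 6.73). NaCl LPS array 17 was low in Tshb too (3.70, against 6.61 to 8.04). NaCl LPS array 47 was the only one of the 9 from arrays 41 to 56, in which the sequence of groups in the labels starts again, and array 35 carried a second run number in its label. Of the NaCl NaCl arrays, array 48 also came from arrays 41 to 56 and array 20 carried a second run number. No SC560 NaCl array did either. Outside the comparison, array 36, labelled SC560 NaCl, had an interferon and inflammation profile like that of the challenged rats, and array 21, labelled CEL LPS, had an interferon profile like that of unchallenged ones. Leaving out 1 of the 9 arrays turned the sign of the difference or moved its size by over 1.5 times in 41 of the 66 named genes, and beside the genes described most fully such values are given.

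No transcript cluster differed between SC560 LPS and NaCl LPS at an adjusted p under 0.05 in limma, which pools the spread of the 35 arrays of the 8 drug and saline groups. Of 36685 clusters 0 were called, and the smallest adjusted p was 0.247, a value shared by more than 1 cluster. At an unadjusted p under 0.05 there were 1536, or 4.19% of all clusters. Of these, 680 (1.85%) were higher in SC560 LPS and 856 (2.33%) were lower. The median difference over all clusters was 0.01, 52.0% lay above 0, and 142 differed by more than 1 in size. In 222 clusters (0.605%) every SC560 LPS array lay above every NaCl LPS array, and in 254 (0.692%) every one lay below. The number of arrays limits what could be seen: the 95% confidence interval of a difference reached a median of 0.44 to either side, and 0.38 for clusters above the median intensity. In bulk tissue, fewer cells of a type and less RNA per cell cannot be told apart.

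**Figure D1:**
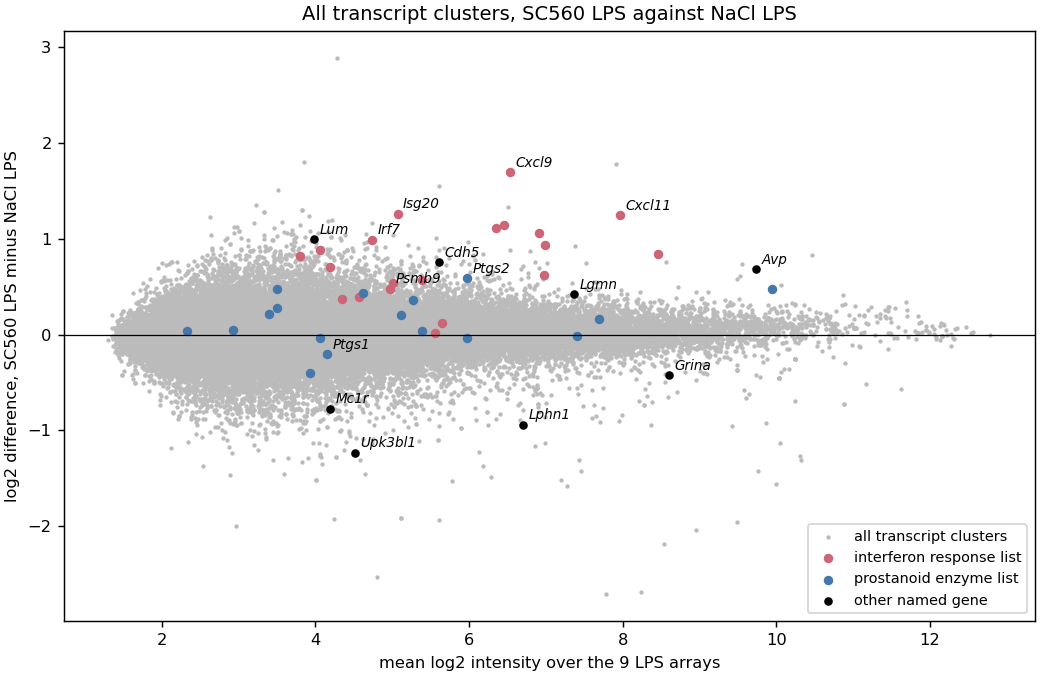
Difference between SC560 LPS (n = 5) and NaCl LPS (n = 4) against the mean log2 intensity of the 9 arrays, 1 point per transcript cluster, with the interferon response and prostanoid enzyme lists and 8 other named genes marked. All 20 interferon genes lie above 0 and most other points lie within 0.44 of it.

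The group of genes that lay furthest from 0 was that induced by interferon, the antiviral, antigen-presenting and chemokine genes that the factors IRF and STAT switch on. All 20 measured genes of 26 on the list were higher in SC560 LPS, by 0.01 to 1.70 with a median of 0.83, against 53.1% higher and a median of 0.01 over all genes and clusters. None passed the adjustment (adjusted p = 1.00 in limma for each), and 3 had an unadjusted p under 0.05, against 3.61% of all 14557 genes. Groups of genes that are induced together deviate together in each rat, so the count of 20 is not a count of independent results. The list was chosen with earlier results of these data known, so the shares set beside it are a description and not a test.

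The promoters of 3 of these genes are shown because they carry the element through which interferon acts on such genes. Each sequence holds 250 bases before and 50 from the annotated start on, in the direction of the gene, from RefSeq on GRCr8. Capitals mark GAAA, any 2 bases and GAAA again, or the reverse complement with TTTC on both sides, the core of the interferon-stimulated response element.
Isg20, chr1:142239809-142240108, plus strand: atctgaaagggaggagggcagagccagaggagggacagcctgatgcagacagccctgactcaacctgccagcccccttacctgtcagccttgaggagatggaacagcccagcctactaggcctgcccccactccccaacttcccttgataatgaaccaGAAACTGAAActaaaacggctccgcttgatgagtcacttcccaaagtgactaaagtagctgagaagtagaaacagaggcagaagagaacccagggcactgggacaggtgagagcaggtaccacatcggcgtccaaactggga
Rsad2, chr6:48788071-48788370, minus strand: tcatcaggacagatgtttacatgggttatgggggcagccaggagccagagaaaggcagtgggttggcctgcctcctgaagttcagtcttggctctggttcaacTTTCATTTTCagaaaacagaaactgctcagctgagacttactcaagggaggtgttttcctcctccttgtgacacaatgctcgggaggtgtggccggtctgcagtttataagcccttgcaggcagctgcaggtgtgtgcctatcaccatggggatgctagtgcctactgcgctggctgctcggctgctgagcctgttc
Irf7, chr1:205799974-205800273, minus strand: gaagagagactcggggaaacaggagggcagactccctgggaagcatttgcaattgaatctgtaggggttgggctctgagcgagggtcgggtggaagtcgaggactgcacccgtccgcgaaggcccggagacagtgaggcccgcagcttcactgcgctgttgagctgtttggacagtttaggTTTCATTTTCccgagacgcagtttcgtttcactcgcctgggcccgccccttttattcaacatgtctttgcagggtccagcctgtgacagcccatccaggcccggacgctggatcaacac
With the start counted as 0, the match began at -92 in Isg20, -147 in Rsad2 and -69 in Irf7. Of the 17 interferon genes with a known promoter, 10 (58.8%) held the motif on either strand, against 1312 of all 33469 promoters (3.92%), 1 of 19 for acute inflammation and 0 of 13 for prostanoid enzymes. A match is a description of the letters and not evidence of binding in these rats.

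Isg20 encodes a nuclease that degrades viral RNA. In SC560 LPS it was at 6.24, 5.19, 6.36, 4.39 and 5.98 in arrays 31 to 35, and in NaCl LPS at 3.10, 4.77, 4.53 and 5.08 in arrays 16, 17, 18 and 47. Array 34 lay inside the range of the saline rats and the other 4 lay above it. The difference was 1.26 (standard error 0.47, 95% interval 0.31 to 2.22), a 2.40-fold higher level, with an unadjusted p of 0.011 in limma. Cxcl9, a chemokine that draws T cells, had the largest difference of the list at 1.70 (standard error 0.87, 95% interval -0.09 to 3.48). It was at 8.19, 6.29, 7.59, 5.94 and 8.42 in SC560 LPS and at 5.18, 5.72, 6.26 and 5.19 in NaCl LPS, with array 34 again within the range of the other group. Array 34 behaved in the same way for Rsad2, which blocks the budding of viruses, and for the chemokine Cxcl11. Rsad2 lay at 7.22, 6.98, 7.30, 5.37 and 7.94 in SC560 LPS and at 4.48, 6.94, 6.50 and 5.36 in NaCl LPS, a difference of 1.14 (standard error 0.72). Cxcl11 lay at 9.38, 8.34, 9.15, 6.49 and 9.23 against 5.51, 7.68, 8.15 and 7.72, a difference of 1.25 (standard error 1.23). For both genes the lowest saline array was array 16, as it was for Isg20. Without it the differences were 0.84 for Isg20, 0.70 for Rsad2 and 0.66 for Cxcl11.

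Irf7 and Psmb9 on the same list were picked after their values had been seen. Irf7, the factor that amplifies the interferon response, was at 6.15, 4.81, 5.22, 4.21 and 5.51 in SC560 LPS and at 3.58, 4.80, 4.64 and 3.74 in NaCl LPS. Its difference of 0.99 (standard error 0.35, 95% interval 0.27 to 1.71) had the smallest unadjusted p of the list, 0.0087 in limma. Psmb9, a subunit of the immunoproteasome that cuts peptides for presentation, was the 1 interferon gene in which the groups did not overlap. Over all clusters, SC560 LPS lay wholly above NaCl LPS in 0.605%. Psmb9 ranged from 4.98 to 5.35 in SC560 LPS and from 4.63 to 4.83 in NaCl LPS, with a difference of 0.48 (standard error 0.18). At the other end, Stat2 and Irf9, which carry the interferon signal to the nucleus, differed by 0.01 and 0.12.

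**Figure D2:**
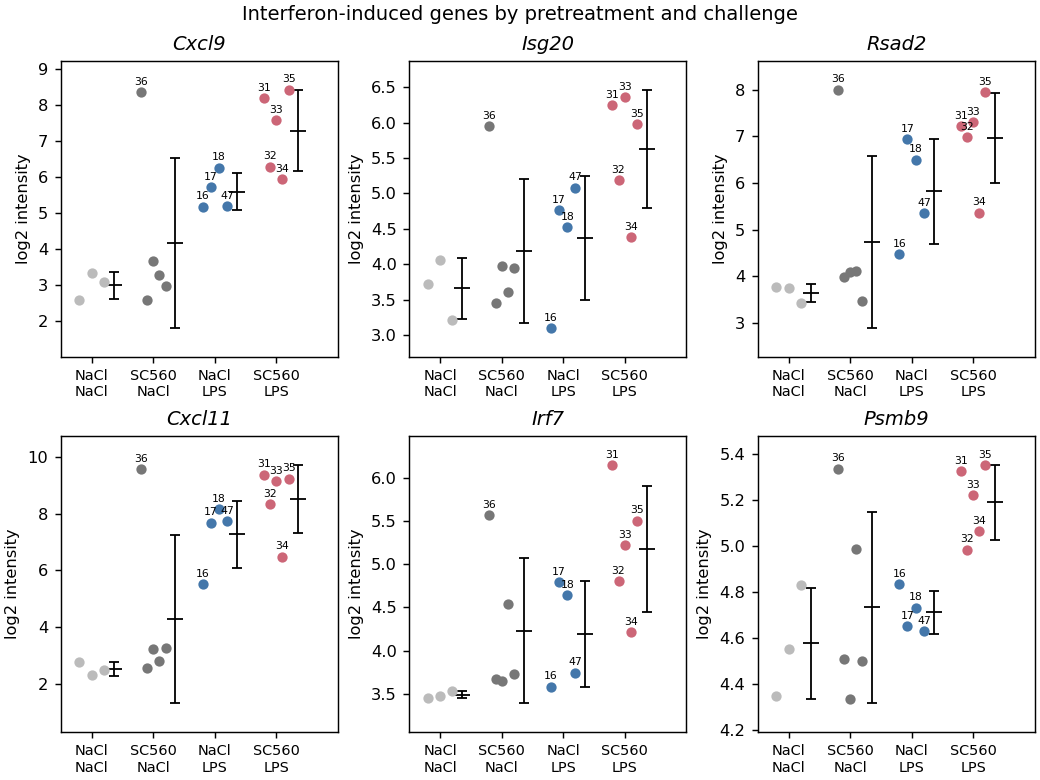
Log2 intensity of 6 interferon-induced genes in NaCl NaCl (n = 3), SC560 NaCl (n = 5), NaCl LPS (n = 4) and SC560 LPS (n = 5), 1 point per array, with the mean and SD beside them and array numbers over the LPS arrays and array 36. Array 34 lies among the saline rats in all but Psmb9, and array 36 lies with the LPS arrays.

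Over the whole list, the mean level relative to the average of the 9 arrays was 0.94, 0.16, 0.51, -0.73 and 0.88 in SC560 LPS arrays 31 to 35 and -1.13, -0.02, -0.12 and -0.48 in NaCl LPS arrays 16, 17, 18 and 47. The groups overlapped: array 34 was lower than 3 of the 4 saline arrays, and the other 4 SC560 LPS arrays were above all of them. Without array 34 the median difference was 1.14, without array 16 it was 0.60, and over all arrays left out in turn it stayed within these values. In arrays 1 to 40 alone, with 3 saline rats, it was 0.72. Array 36 adds to the pooled spread although it is in neither group. In the fit without it, chosen after its values were seen, 6 of the 20 genes had an unadjusted p under 0.05 in place of 3, still with 0 of 36685 clusters called. Of all clusters 4.20% had such a p in that fit, against 4.19% with array 36.

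Acute inflammation genes, the cytokines, adhesion molecules and NF-kB targets that follow Toll-like receptor signalling, were higher by a median of 0.35, with 21 of 24 measured genes of 30 above 0 and a range from -0.45 to 1.01. None passed the adjustment (adjusted p = 1.00 in limma) and 0 had an unadjusted p under 0.05, or 4 in the fit without array 36. In that fit 4.20% of all clusters had such a p. Lcn2, a siderophore-binding protein secreted in inflammation, had the largest difference, 1.01 (standard error 0.55). It was at 6.94, 5.14, 6.25, 5.30 and 6.46 in SC560 LPS and at 4.48, 5.26, 4.86 and 5.43 in NaCl LPS, so that arrays 32 and 34 lay inside the saline range. Selp, the adhesion molecule P-selectin, differed by 0.89 (standard error 0.46), Ch25h, which makes 25-hydroxycholesterol, by 0.81 (standard error 0.43), and Zfp36, which destabilizes cytokine RNA, by 0.73 (standard error 0.40). Selp was above every saline array in 2 of 5 SC560 LPS arrays, Ch25h in 4 and Zfp36 in 3. Ch25h differed by 0.52 without array 31 and Zfp36 by 0.47 without array 17.

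The classical cytokines were dim and close to each other in both groups. Tnf was at 3.99, 3.45, 4.29, 3.74 and 4.13 in SC560 LPS and at 4.38, 4.02, 4.02 and 3.66 in NaCl LPS, a difference of -0.10 (standard error 0.24, 95% interval -0.59 to 0.39), which was 0.02 without array 16 and 0.01 without array 32. Il6 differed by 0.10 (95% interval -0.49 to 0.70) and Il1b by 0.31 (95% interval -0.46 to 1.08). Il1b was at 4.18 in NaCl LPS array 47 and between 2.37 and 3.01 in the other saline arrays, and its difference was 0.69 without array 47 and 0.09 without array 17. Nfkbia, the inhibitor of NF-kB and one of its first targets, was bright, at 7.47, 7.01, 7.44, 7.77 and 7.76 against 7.35, 6.95, 7.02 and 7.52. Its difference was 0.28 (standard error 0.32) and the ranges overlapped. Tlr4, the LPS receptor, had the lowest value of the list at -0.45. The list's median was 0.22 without NaCl LPS array 17 and 0.23 without SC560 LPS array 35.

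Among the genes that make, move and break down prostanoids, 12 of 17 measured of 19 were higher, with a median of 0.16 and a range from -0.40 to 0.59. None passed the adjustment (adjusted p = 1.00 in limma). Ptgs1, the target of SC-560, was dim and did not separate the groups. It was at 3.84, 4.00, 4.31, 3.92 and 4.23 in SC560 LPS and at 3.89, 3.88, 4.66 and 4.62 in NaCl LPS, with the saline rats forming a lower and a higher pair. The difference was -0.20 (standard error 0.20, 95% interval -0.62 to 0.21). It was -0.07 without array 18 and -0.09 without array 47, the higher pair, and -0.33 without array 16 or array 17. Ptgs2 was at 6.74, 5.41, 6.01, 6.40 and 6.64 in SC560 LPS and, close together, at 5.66, 5.56, 5.60 and 5.79 in NaCl LPS. All SC560 LPS arrays except array 32 were above the saline rats, and the difference was 0.59 (standard error 0.31, 95% interval -0.05 to 1.22), a 1.50-fold higher level. Its unadjusted p in limma was 0.068, and 0.029 in the fit without array 36. Pla2g4a, the phospholipase that releases arachidonic acid, differed by 0.43 (standard error 0.23), and by 0.17 without NaCl LPS array 18. Ptgds, the prostaglandin D synthase of meninges and choroid plexus, ranged from 8.55 to 11.25 in SC560 LPS and from 8.81 to 10.27 in NaCl LPS. Its lowest value was in array 33, and its difference was 0.48, or 0.88 without that array, 0.20 without array 31 and 0.19 without array 47. Ptges2, a prostaglandin E synthase that is always present, differed by 0.03 (95% interval -0.34 to 0.40), and the transporter Slco2a1 by 0.47 (standard error 0.34), or 0.24 without array 17 and 0.72 without array 34.

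Of the 17 measured genes of this list 1 had an unadjusted p under 0.05, against 3.61% of all genes. It was Alox5ap, chosen after its value was seen, which presents arachidonic acid to 5-lipoxygenase for leukotriene synthesis. It was at 5.70, 5.41, 5.40, 5.27 and 5.35 in SC560 LPS and at 5.03, 5.30, 4.81 and 5.13 in NaCl LPS, with array 34 just under the highest saline rat. The difference was 0.36 (standard error 0.15, 95% interval 0.04 to 0.67, unadjusted p = 0.027 in limma). Alox5 itself differed by -0.03 and Alox15 by 0.21. Without array 35 the median of the list was 0.07. Of the prostanoid receptors 8 of 9 were measured, 4 higher and 4 lower, with a median of -0.01 and 0 at an unadjusted p under 0.05. Ptger3, the receptor on preoptic neurons through which prostaglandin E gives fever, differed by -0.13 (95% interval -0.87 to 0.60). Ptger4 differed by 0.06 (95% interval -0.29 to 0.41) and Ptgdr2, a receptor of prostaglandin D, by 0.42 (standard error 0.28).

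**Figure D3:**
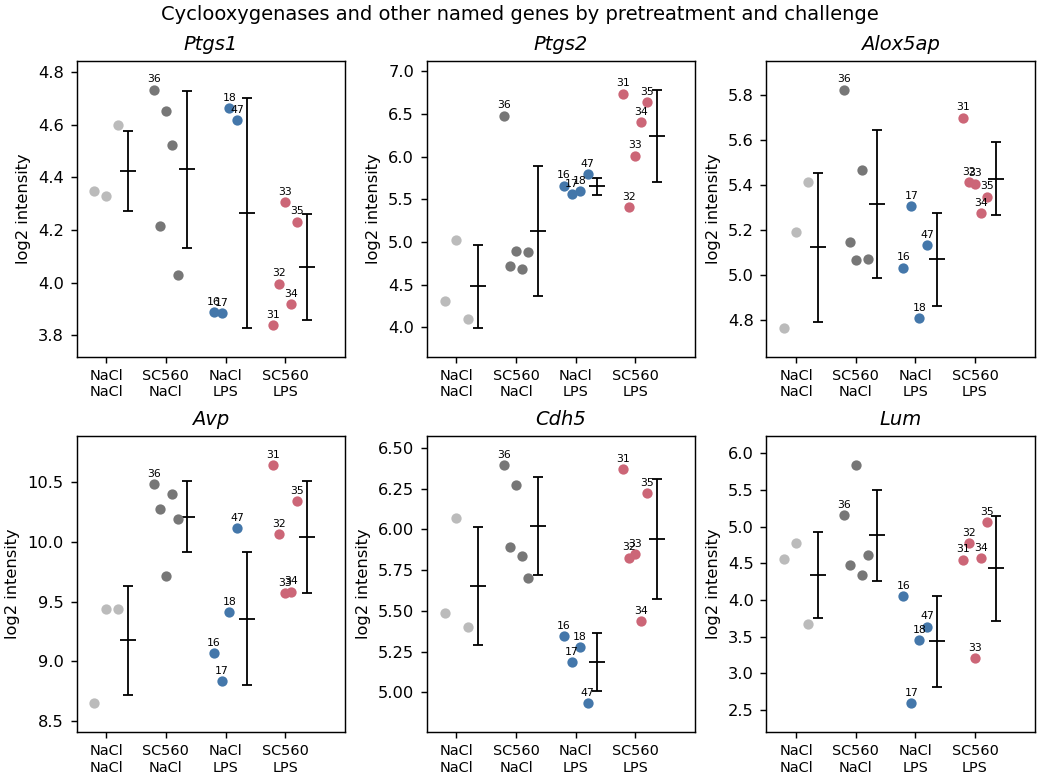
Log2 intensity of Ptgs1, Ptgs2, Alox5ap, Avp, Cdh5 and Lum in the same 4 groups, 1 point per array, with the mean and SD. Cdh5 is the 1 gene of the 6 in which all SC560 LPS arrays lie above all NaCl LPS arrays, and Ptgs1 overlaps throughout.

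Genes induced by glucocorticoids through the receptor Nr3c1 had a median difference of 0.30, with 10 of 11 measured genes of 16 above 0 and 0 at an unadjusted p under 0.05. The metal-binding Mt2A differed by 0.76 (standard error 0.61), the kinase Pdk4 by 0.59 (standard error 0.46) and Fkbp5, which feeds back on the receptor, by 0.37 (standard error 0.32). Fkbp5 was at 7.55 in array 31 and between 5.95 and 6.78 in the other SC560 LPS arrays, and between 5.76 and 6.63 in NaCl LPS. It differed by 0.14 without array 31, and Mt2A and Pdk4 differed by 0.34 and 0.16 without array 16. The median of the list was 0.14 without array 31 and 0.17 without array 16. Nr3c1 itself differed by 0.02 (95% interval -0.32 to 0.36). Immediate early genes, which follow the firing of neurons, had a median of 0.11, with 10 of 15 measured of 19 above 0 and 0 at an unadjusted p under 0.05. Fos was at 4.88, 4.73, 5.44, 6.11 and 5.14 in SC560 LPS and at 4.87, 4.65, 5.21 and 4.59 in NaCl LPS, a difference of 0.43 (standard error 0.31), and Junb differed by 0.40 (standard error 0.31). In both genes the groups overlapped, and Fos differed by 0.22 without array 34.

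Vasopressin was the peptide gene that stood furthest from 0. Avp was at 10.64, 10.06, 9.57, 9.58 and 10.34 in SC560 LPS and at 9.07, 8.84, 9.41 and 10.11 in NaCl LPS, so that saline array 47 lay within the SC-560 range and the other 3 below it. The difference was 0.68 (standard error 0.30, 95% interval 0.07 to 1.29, unadjusted p = 0.030 in limma), a 1.60-fold higher level, and 0.93 without array 47. Oxt, its neighbour in the genome and in the nucleus, was at 10.45, 10.48, 9.76, 10.14 and 9.69 against 9.51, 9.43, 9.72 and 10.76, a difference of 0.25 (standard error 0.29), with array 47 again the highest saline rat, and 0.55 without it. Crh, which starts the pituitary and adrenal response, was dim and differed by -0.06 (95% interval -0.59 to 0.46). Pomc differed by -0.35, and by 0.03 without array 33. Over the 7 measured genes of 12 of this axis the median was -0.06, with 2 higher, and without array 33 it was 0.03. The other hypothalamic peptides, 17 measured of 23, had a median of 0.05 with 10 higher and 0 at an unadjusted p under 0.05. The largest differences among them were in Gnrh1, at 0.58 (standard error 0.33, 0.32 without array 18 and 0.87 without array 47), and the neurotensin gene Nts, at 0.57 (standard error 0.29). Nts was at 6.81, 6.21, 5.75, 6.21 and 6.28 in SC560 LPS and at 5.61, 5.33, 5.72 and 6.05 in NaCl LPS, and all SC560 LPS arrays except array 33 lay above the saline rats.

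Lists of steady functions of the tissue, and that of heat and cold shock genes, had medians near 0. The median was 0.03 for the circadian clock (5 of 10 measured genes of 17 higher), 0.03 for the respiratory chain (8 of 14 of 20) and 0.06 for cholesterol synthesis (6 of 10 of 17). Glutamate and GABA receptors had a median of 0.12 (7 of 11 of 23 higher), led by Gabra2, a GABA receptor subunit, at 0.26 (standard error 0.14). Heat and cold shock genes had a median of -0.06 (4 of 12 of 18 higher), with Hspa1b at -0.63 (standard error 0.32) and Hspb1 at 0.49 (standard error 0.24), both chaperones induced by stress. Rbm3, induced by cold, differed by 0.22 (standard error 0.25). None of these 5 lists had a member at an unadjusted p under 0.05. In the fit without array 36, 2 heat and cold shock genes did, Hspa1b and Hspb1 (each unadjusted p = 0.049 in limma), as did 4.20% of all clusters.

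**Figure D4:**
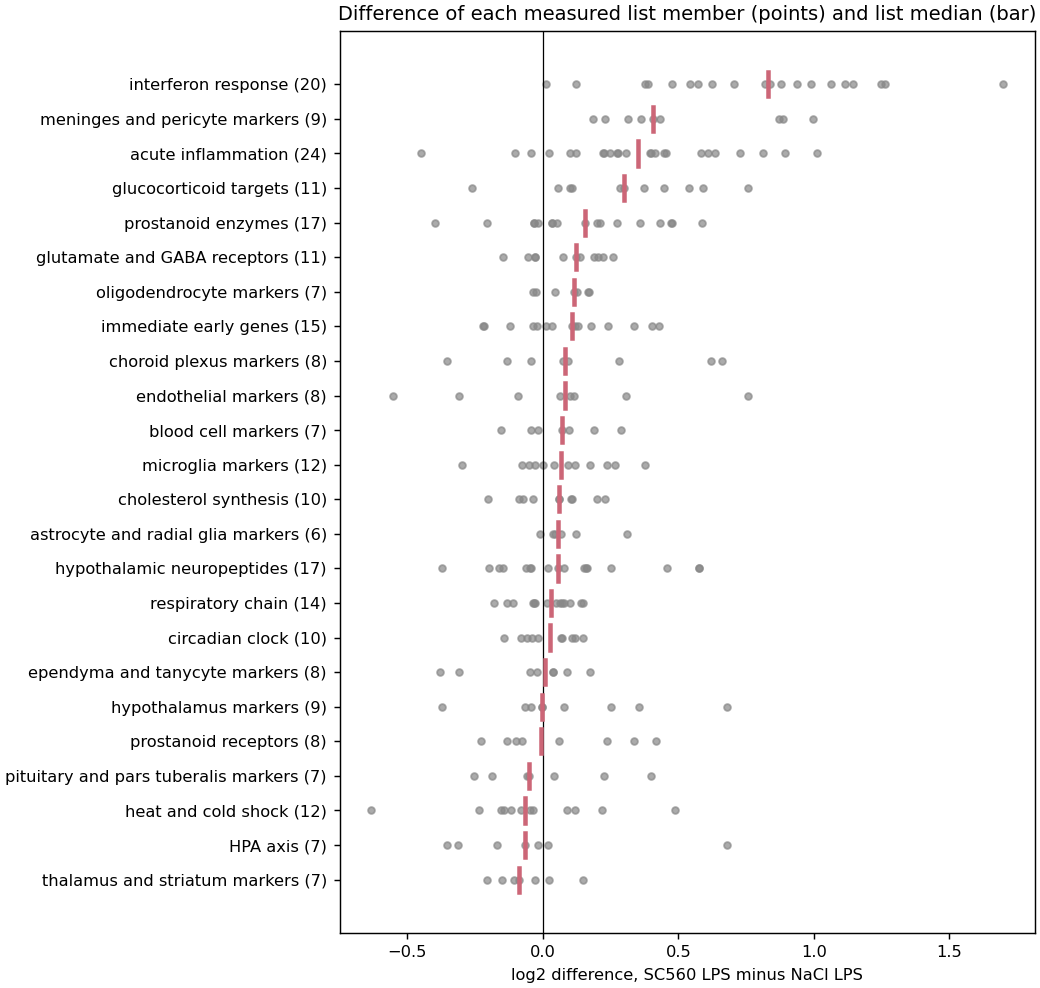
Log2 difference of each measured member of the 24 lists (grey points) and the median of each list (red bar), with the number of measured members in brackets. The interferon response has the highest median, 0.83, followed by meninges and pericyte markers at 0.41 and acute inflammation at 0.35.

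Markers of cell types and of neighbouring tissue were measured because the dissection can take more or less of each. Markers of the meninges and of pericytes were higher in 9 of 9 measured genes of 11, by 0.18 to 1.00 with a median of 0.41. Lum, a collagen-binding protein of fibroblasts, was at 4.55, 4.77, 3.20, 4.56 and 5.06 in SC560 LPS and at 4.06, 2.59, 3.45 and 3.64 in NaCl LPS, with array 33 within the saline range and the other 4 above it. It differed by 1.00 (standard error 0.38, unadjusted p = 0.014 in limma). Slc6a13, a GABA transporter of meningeal cells, differed by 0.89 (standard error 0.49) and Ogn, another matrix protein of fibroblasts, by 0.87 (standard error 0.63), or 0.49 without array 17. The level of this list relative to the 9 arrays ran from -0.76 to 0.95 in SC560 LPS and from -1.05 to 0.16 in NaCl LPS, and its median was 0.22 without array 17 and 0.69 without array 18. It moved in the same direction as the inflammation, interferon and prostanoid lists, and its part in those results was not tested. In arrays 31 to 35 the meninges list lay at 0.95, 0.31, -0.76, -0.00 and 0.66 and in arrays 16, 17, 18 and 47 at 0.11, -1.05, 0.16 and -0.39. Arrays 31 and 35 were the highest in this list and in the interferon list, whereas the lowest were array 17 in this list and array 16 in the other.

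Cdh5, the cadherin of endothelial junctions, was the 1 cell type marker whose groups did not overlap. Over all clusters, every SC560 LPS array lay above every NaCl LPS array in 0.605%. Cdh5 was at 6.37, 5.83, 5.85, 5.44 and 6.22 in SC560 LPS and at 5.35, 5.19, 5.28 and 4.93 in NaCl LPS. The difference was 0.76 (standard error 0.24, 95% interval 0.27 to 1.24), a 1.69-fold higher level, with an unadjusted p of 0.0033 and an adjusted p of 1.00 in limma. Other endothelial genes did not share it: the tight junction gene Cldn5 differed by -0.55 (standard error 0.49), and the 8 measured of 10 had a median of 0.08 with 5 higher. Microglia, the resident immune cells of the brain, had a median of 0.07 over 12 measured markers of 13, with 8 higher, and Cx3cr1, the fractalkine receptor, differed by 0.38 (standard error 0.27), or by 0.07 without array 18 and 0.60 without array 47. Medians were 0.06 for astrocytes and radial glia (5 of 6 measured of 11 higher), 0.11 for oligodendrocytes (5 of 7 of 10), 0.01 for ependyma and tanycytes (4 of 8 of 11) and 0.08 for the choroid plexus (5 of 8 of 8). The choroid marker Ttr was at 7.83 and 6.63 in arrays 31 and 32 and at no more than 5.45 in the other 7. Vim, the filament of tanycytes and vessels, differed by 0.09 (standard error 0.24). The median was 0.07 for blood cells (4 of 7 of 9 higher), -0.09 for thalamus and striatum (2 of 7 of 10), -0.05 for pituitary and pars tuberalis (3 of 7 of 8) and -0.00 for hypothalamus markers (4 of 9 of 10). Apart from Lum, Cdh5 and Avp, which is on the hypothalamus list, 0 members of these 11 lists had an unadjusted p under 0.05. Such a p was found in 3.61% of all genes.

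**Figure D5:**
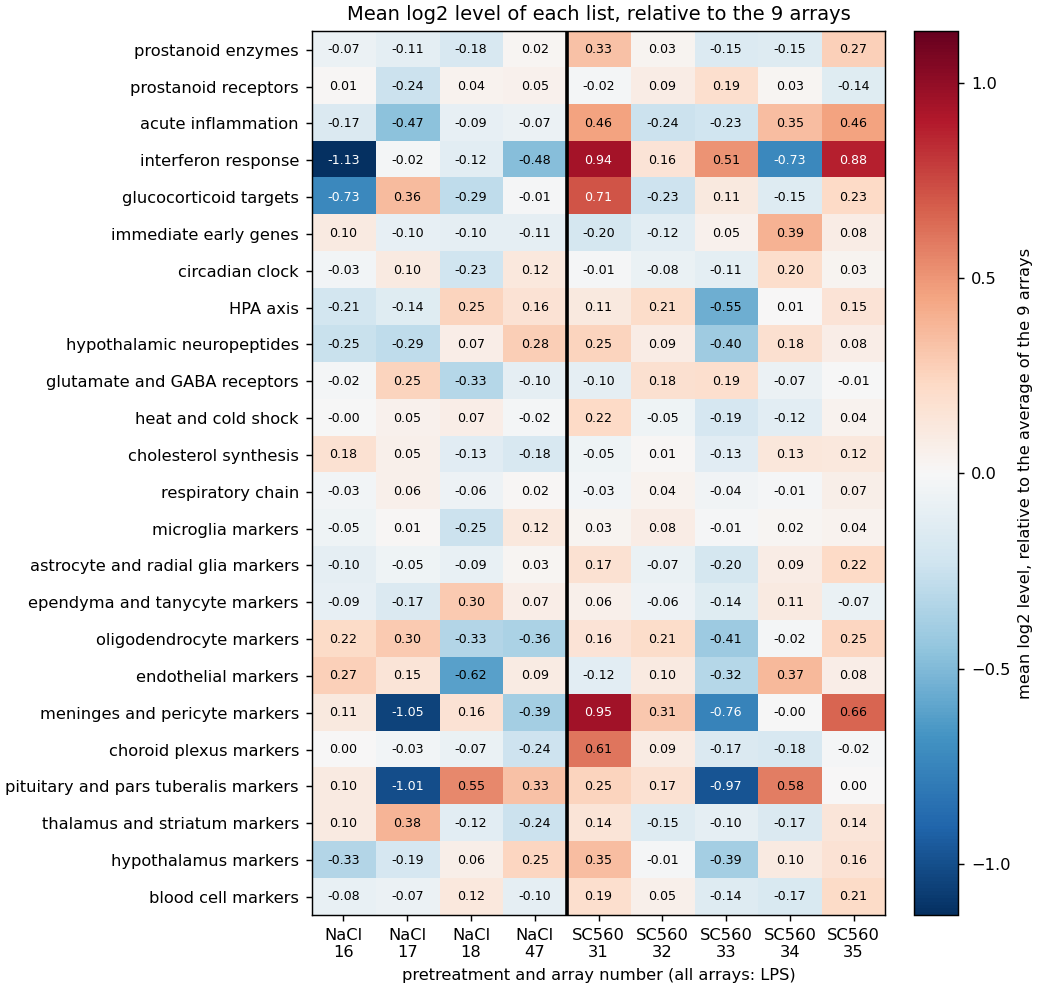
Mean log2 level of each of the 24 lists in each of the 9 LPS arrays, relative to the average of the 9, with NaCl LPS left and SC560 LPS right of the line. The interferon row runs from -1.13 in array 16 to 0.94 in array 31, and arrays 17 and 33 are low in the meninges and the pituitary rows.

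The single genes with the smallest p did not form a group of known function. Of the 12 higher genes with the smallest p 4 had symbols of odorant, vomeronasal or taste receptors, and of the 12 lower genes likewise 4, against 8.81% of all genes, and 6 and 8 of them were below the median intensity. The groups did not overlap in 8 and 7 of them, and since the p chose them, no test of their separation is given. Mc1r, a melanocortin receptor best known from pigment cells, was at 4.03, 3.50, 3.84, 3.89 and 3.99 in SC560 LPS and at 4.16, 4.70, 4.66 and 4.97 in NaCl LPS, lower by a difference of -0.77 (standard error 0.19). Hes2, a transcriptional repressor, differed by -0.79 (standard error 0.20) and Upk3bl1 by -1.23 (standard error 0.35). Other genes in this set were brighter. Grina, a membrane protein that curbs calcium release and cell death, was at 8.45, 8.44, 8.23, 8.51 and 8.46 against 8.88, 8.93, 8.81 and 8.75, a difference of -0.42 (standard error 0.13). The latrophilin Lphn1, an adhesion receptor of synapses, was at 6.39, 6.33, 6.16, 6.31 and 6.22 against 6.76, 7.21, 7.19 and 7.73, a difference of -0.94 (standard error 0.28). Both were lower in all 5 arrays. Lgmn, a lysosomal protease of microglia and macrophages, was at 7.46, 7.72, 7.46, 7.52 and 7.62 against 7.41, 7.19, 6.87 and 7.05, higher by 0.42 (standard error 0.13) and above every saline rat. Zscan21, a zinc finger factor, differed by 0.62 (standard error 0.16), the protocadherin Pcdhb8 by 0.68 (standard error 0.20), Mical1, which oxidizes actin, by 0.59 (standard error 0.17), Lcnl by 0.77 (standard error 0.21) and Dlg5l17 by 1.01 (standard error 0.28). The smallest adjusted p among these 24 genes was 0.873 in limma.

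Whether the difference made by SC-560 depended on LPS was tested as the difference of differences, in which SC560 LPS and NaCl LPS are set against SC560 NaCl and NaCl NaCl. Limma called 0 clusters, with 1336 (3.64%) at an unadjusted p under 0.05 and a smallest adjusted p of 0.842. Without NaCl LPS array 47 it called 1 cluster, which has no gene symbol, at 1.48 (standard error 0.23, adjusted p = 0.0210), against 1.21 (standard error 0.27, adjusted p = 1.00) with that array. The interferon list was higher in SC560 NaCl than in NaCl NaCl as well, by a median of 0.70 in 20 of 20 genes, but this rested on array 36. On the scale used above, the list lay at 1.00 in array 36, between -2.10 and -1.79 in the other 4 SC560 NaCl arrays and between -2.10 and -1.98 in NaCl NaCl. Without array 36 the median was 0.07, with 16 of 20 higher, and the difference of differences was 0.59, higher in 20 of 20, in place of 0.05 and 12 of 20. For acute inflammation the median in rats that had no LPS was 0.24, and 0.03 once array 36 was left out, and the difference of differences was 0.04 and 0.29. Without array 36 there were 0 calls again, with 1305 at an unadjusted p under 0.05.

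Between SC560 NaCl and NaCl NaCl limma called 0 clusters, with a smallest adjusted p of 0.9999, and 0 again without array 36. At an unadjusted p under 0.05 there were 1453 clusters (3.96%). None of the differences below passed the adjustment, and they did not rest on array 36 alone. Meninges and pericyte markers were higher in SC560 NaCl than in NaCl NaCl by a median of 0.63, in 9 of 9 genes, and by 0.56 without array 36. The levels of this list overlapped, from 0.32 to 1.34 in SC560 NaCl and from -0.46 in array 48 to 0.76 in array 20 in NaCl NaCl. Avp was at 10.48, 10.27, 9.71, 10.40 and 10.19 in SC560 NaCl and at 8.65, 9.44 and 9.44 in NaCl NaCl, a difference of 1.03 (standard error 0.33) and 0.97 without array 36. Every SC560 NaCl array was above every NaCl NaCl array in Avp, and the difference of differences was -0.35 (standard error 0.44). The share of all clusters that separate in this way was not counted for these small groups, so no weight is put on the separation. Avp was not alone in being higher without LPS. Hypothalamus markers, which include Avp, were higher without LPS in 9 of 9 genes, by a median of 0.37, and 0.41 without array 36. Their list lay at -0.14, -0.06 and -0.53 in NaCl NaCl arrays 19, 20 and 48, and between 0.07 and 0.38 in SC560 NaCl. Array 48 was the lowest of these, and its part in the median was not tested. The other hypothalamic peptides were higher in 15 of 17, by a median of 0.30. The median difference of differences was -0.34 for hypothalamus markers, -0.17 for these peptides and -0.35 for the adrenal axis. Tshb differed by 3.40 (standard error 0.88) without LPS and by 0.22 (standard error 0.81) with it, or by 1.16 with it when array 33 was left out and -0.70 when array 17 was. The difference of differences for Tshb was -3.18 (standard error 1.20, adjusted p = 1.00 in limma). The pars tuberalis is a thin layer at the border of the dissected tissue, and the part of the dissection in these levels was not tested. Of single genes, Hes2 had the smallest p in this test. It differed by 0.68 without LPS and by -0.79 with it, a difference of -1.47 (standard error 0.29). Fhip1b, a partner of dynein, and Rusc1, an adaptor protein of neurons, followed at 0.69 (standard error 0.18) and 0.66 (standard error 0.18).

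Celecoxib, which inhibits the other cyclooxygenase, was the drug set beside SC-560. As the doses are unknown here, values are set side by side, and both drugs share the NaCl LPS arrays. Between SC560 LPS and CEL LPS limma called 0 clusters, with 1652 (4.50%) at an unadjusted p under 0.05 and a smallest adjusted p of 0.995. Fabp7, the fatty acid carrier of radial glia and astrocytes, was at 8.95, 9.09, 8.84, 9.04 and 9.20 in SC560 LPS and at 8.57, 8.49, 8.17, 8.41 and 8.31 in CEL LPS. All SC560 LPS arrays lay above all CEL LPS arrays, by 0.63 (standard error 0.16), and against NaCl LPS the differences were 0.12 for SC-560 and -0.51 for celecoxib. Crkl, an adaptor of tyrosine kinase signalling, showed the same order, at 6.62, 6.81, 6.44, 6.98 and 6.71 against 5.92, 6.18, 6.27, 6.15 and 6.32, with 0.54 (standard error 0.13). Both were named for their small p, so that their separation is no further result, and both had an adjusted p of 0.995 in limma. Ptgs2 was at 5.93, 5.95, 6.14, 5.91 and 6.09 in CEL LPS, a difference of 0.35 from NaCl LPS against 0.59 for SC-560, and Ptgs1 at 4.42, 4.66, 3.94, 4.33 and 4.50.

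The interferon list was higher in SC560 LPS than in CEL LPS by a median of 0.64, in 20 of 20 genes, and celecoxib against NaCl LPS had a median of 0.22 with 13 of 20 higher. CEL LPS spread widely: the list lay at -1.89, -0.13, -0.68, 0.84 and 0.29 in arrays 21 to 25, and array 21 was thus within the range of the rats that had no LPS. Without array 21, left out after its values were seen, SC-560 exceeded celecoxib by 0.25 in 19 of 20 genes and celecoxib exceeded saline by 0.45 in 19 of 20. Without array 24 celecoxib was at -0.08 against saline, with 8 of 20 higher. The medians of meninges and pericyte markers were 0.41 for SC-560 and 0.36 for celecoxib against the same saline arrays, and those of acute inflammation 0.35 and 0.24.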

How the data were processed

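Total RNA of the medial hypothalamus was hybridized to Affymetrix Rat Gene 2.1 ST array strips. The authors deposited 1 linear intensity per transcript cluster and array, made with RMA in Affymetrix Expression Console per the labels, version not stated, and the paper's methods name Partek Genomics Suite. RMA pulls dim probes together, so small differences of dim genes are understated. The values ran from 1.75 to 7819.8, and their log2 was taken with nothing added. Gene symbols came from the array annotation: 14824 of 36685 clusters carried 1 symbol, 829 several and 21032 none, and the brightest cluster stood for a gene, giving 14557 genes. In 1415 clusters the values equalled those of another.

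A linear model of group means was fitted with limma 3.58.1 under R 4.3.3, with moderated variances, over 35 arrays, with p-values adjusted by Benjamini and Hochberg over all clusters at a threshold of 0.05. The script was tested on simulated data. Named were 21 chosen genes, of which Ptges has no symbol in the annotation used here, up to 12 genes per direction, 4 per list and 4 in each further comparison. The members, the 24 lists and the rule for names were chosen with earlier results of these data known. Promoters came from RefSeq (GRCr8), and 14670 single-symbol clusters matched its gene table. Other ways of processing were tried: leaving out each array, other sets of arrays, the array set as a block, array weights, quantile normalization once more, an intensity filter, single-symbol clusters, a robust fit with an intensity trend and the analysis of variance named in the methods. The choice to leave out array 36, and each CEL LPS array in turn, was made once their values were known. Plotting used matplotlib 3.10.9 in Python 3.11.15. The 21 arrays of untouched, sham-operated and vagotomized rats entered only the choice of the brightest cluster and 1 of these other fits.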

Additional observations from a re-analysis of the deposited data

Results flagged for a closer look

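An array far from the rest of its group was looked for in 180 group samples, 66 named genes and 24 lists in SC560 LPS and in NaCl LPS, and in 36 more of SC560 NaCl, 12 plotted genes and the 24 lists. Among the 180, 14 were found, and chance alone gives about 1 in 20 for independent values, which these genes and lists are not. The 36 were added once the values of array 36 had been seen, so the 8 found there are not set against chance. In all 22 of 216 were found.

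SC560 LPS array 33 held 8 of them, all low. They were Pomc at 4.60 (others at least 6.41), Tshb at 2.97, Lum at 3.20, the glucocorticoid receptor gene Nr3c1 at 6.30, Gabra2 at 8.66 and Grina at 8.23, and the mean levels of the adrenal axis list at -0.55 and of the neuropeptide list at -0.40. The oligodendrocyte, meninges and pituitary lists were at -0.41, -0.76 and -0.97 in the same array. In SC560 LPS array 32 Mical1 was high at 4.57.

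In NaCl LPS, Hspb1 was low at 4.20 in array 16, and the immediate early list was high there at 0.10. Zscan21 was low at 3.72 in array 18, where the blood cell list was high at 0.12. The prostanoid receptor list was low at -0.24 in array 17.

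All 8 values of SC560 NaCl came from array 36, whose label gives saline as the challenge. Cxcl9 was at 8.35 (others at most 3.68), Cxcl11 at 9.57 (at most 3.27), Rsad2 at 8.00, Isg20 at 5.95 and Ptgs2 at 6.48. The lists of interferon response, acute inflammation and glucocorticoid targets were at 1.00, 0.69 and 0.51, against at most -1.79, -0.62 and -0.76 in the other 4 arrays. Without it 29 clusters were called between SC560 LPS and SC560 NaCl, and with it 0.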

How the results depend on the processing

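Between SC560 LPS and NaCl LPS 0 clusters were called under each of 11 other ways of processing and with each of the 9 arrays left out, with a smallest adjusted p between 0.0591 (limma, without the arrays of a second run number) and 0.946. The count of the difference of differences ran from 0 to 1 with an array left out, the 1 being without NaCl LPS array 47 (adjusted p = 0.0210), and against CEL LPS it stayed at 0. Of 1308 values of the 66 genes, 31 reversed, and 57 genes never did. Ptges2 was at -0.060 with the array set as a block and in arrays 1 to 40, and at -0.00652 without the arrays of a second run number. Nr3c1 was at -0.00845 after a second quantile normalization, -0.0090 in arrays 1 to 40 and -0.065 without the arrays of a second run number. With the block Ptger3 was at 0.0045 and Ptger4 at -0.035. The cause was not tested. With arrays left out, the ranges were -0.22 to 0.017 for Tnf, -0.024 to 0.15 for Ptger4, -0.19 to 0.062 for Crh, -0.037 to 0.25 for Vim, -0.70 to 1.16 for Tshb, -0.11 to 0.19 for Nr3c1, -0.06 to 0.15 for Ptges2, -0.41 to 0.042 for Ptger3 and -0.58 to 0.032 for Pomc. Of 480 list medians 1 moved past the spread between arrays (blood cells, 0.29 when only clusters above the median intensity were kept). With arrays left out, the medians ran from 0.60 to 1.14 for interferon, 0.22 to 0.43 for inflammation and 0.07 to 0.18 for prostanoid enzymes. In rats that had no LPS, the adrenal axis median was 0.21, and 0.30 without array 36. No paired analysis was possible because each array number belongs to 1 array only. Signal over background was not in the deposited table, and dim genes limit what the 9 arrays can show.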
